A study of Mus musculus with 16 samples.

Results

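The RING finger (Rnf) and tripartite motif (Trim) genes encode a large share of the cell's ubiquitin ligases, and they are described here in mouse CD4+ T cells before and after stimulation through the T cell receptor. Members were all genes whose array symbol is Rnf or Trim followed by a number, apart from Rnf31 and Rnf128, which were left out. The array carried 117 such genes with 184 probes, and 74 of them (46 Rnf and 28 Trim genes) had a probe that was detected (detection p under 0.05) on at least 4 of the 16 arrays, out of 8480 genes that passed the same filter. The other 43 members had no probe that passed and no level is given for them. Rnf32, Rnf186 and Trim2 were detected on 1 array each, and 37 members, among them Rnf13, Rnf43, Trim14, Trim30b and Trim38, on 0. Just outside the filter were Rnf112, detected on 3 arrays, and Trim67 and Trim69, each detected on 2, and just inside it were Rnf144a, Rnf225, Trim45, Trim62, Trim63 and Trim68, each detected on 4, and Rnf216 on 5.

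The cells were MALT1-deficient CD4+ T cells of 4 C57BL/6 mice, so every group lacked the endogenous gene. MALT1 is a scaffold and protease that acts below the antigen receptor and recruits the ubiquitin ligase TRAF6 on the way to NF-kB. Retroviral reconstitution gave cells of each mouse isoform A, isoform B or mock. Isoform A contains an exon, with a further TRAF6 binding motif, that isoform B skips. The 4 groups were isoform A left unstimulated and isoform A, isoform B and mock exposed for 2.5 h to CD3/CD28 stimulation, with 4 arrays in each, 1 per mouse (mice 1 to 4). The expression vector, the transduced fraction and the ages of the mice are not given in the sources used here, and unstimulated cells with isoform B or mock were not analysed here.

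Ubiquitin is passed from an activating enzyme (E1) to a conjugating enzyme (E2) and then to a substrate chosen by a ligase (E3). A RING domain holds the charged E2 next to the substrate, and RING-between-RING enzymes take the ubiquitin onto themselves first. In lymphocytes, ligases of these families edit chains on receptor and cytokine signalling proteins, mark histones and DNA breaks, clear misfolded membrane proteins and act in antiviral sensing, where several Trim genes are themselves induced by interferon.

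Levels are log2 bead intensities after background correction and quantile normalization, and a difference of 1 is a change by a factor of 2 in corrected intensity. Intensities of different probes are not compared with each other. Differences are given with the standard error (SE) of limma's fit with n = 4 mice per group, and a gene is called where limma's p, adjusted over the 8480 genes by the Benjamini-Hochberg method, is under 0.05. Median raw intensity was 121.8 to 138.8 on the 16 arrays, and 10247 to 11012 probes were detected on the stimulated arrays against 11239 to 12085 on the unstimulated ones. All 9 CD4 T cell markers on the array were detected on all 16 arrays, none of 9 macrophage and dendritic cell markers on more than 2 arrays, and 3 of 8 B cell markers passed the filter. Of 9 markers of CD8 and cytotoxic lymphocytes 7 passed, with Cd8b1, Klrd1, Klrk1, Nkg7 and Eomes detected on 16 arrays and Cd8a on 0. The 1 Malt1 probe was detected on 0 to 2 arrays of each group, and its place relative to the transferred sequence is not given, so it does not check the labels. The mock array of mouse 3 stood apart. Its mean log2 level over 23 interferon-stimulated genes was 8.28, against 6.86, 7.30 and 7.01 on the other mock arrays, and its mean over the 2 detected erythroid markers (Hba-a1 and Car2) was 8.33, against 6.58, 7.63 and 7.05. Results on mock are therefore also given without that array.

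The 3 members whose promoter letters bear on the interferon-linked results below are shown first: Trim21, the cytosolic receptor for antibody-coated particles, and Trim30a and Trim30d, neighbouring genes of the mouse Trim30 cluster. The sequences are RefSeq's, assembly GRCm38.p6, from 100 bases before to 30 bases after an annotated start, all on the minus strand of chromosome 7. They lie at chr7:102565453-102565582 for Trim21, chr7:104465164-104465293 for Trim30a and chr7:104507820-104507949 for Trim30d, each across an annotated start of the gene. Capitals mark GAAA, any 2 bases and GAAA again, on either strand, the core spacing of an interferon-stimulated response element.
Trim21: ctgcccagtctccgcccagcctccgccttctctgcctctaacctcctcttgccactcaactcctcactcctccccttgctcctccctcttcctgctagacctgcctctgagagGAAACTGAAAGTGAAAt
Trim30a: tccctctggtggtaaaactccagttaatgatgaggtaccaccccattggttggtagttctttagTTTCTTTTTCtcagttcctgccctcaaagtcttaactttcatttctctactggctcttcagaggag
Trim30d: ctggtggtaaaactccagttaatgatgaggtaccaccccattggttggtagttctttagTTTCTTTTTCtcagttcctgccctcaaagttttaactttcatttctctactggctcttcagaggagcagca
In Trim21 the 16 capital bases hold 2 overlapping matches that run from base 14 to base 29 after the start. In the printed Trim30a stretch the match, read on the other strand, runs from base -36 to base -27, and in Trim30d from base -41 to base -32. A second annotated start of Trim30a, not printed, also has a match in its window. The printed Trim30a and Trim30d stretches share long runs of letters, and a probe of either gene may also take up RNA of the other.

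A promoter window (250 bases before to 50 after the start) was in the RefSeq table for 54 of the 74 measured members, with 73 windows. This core was found in 6 of the 54 genes (11.1%), namely Trim21, Trim30a, Trim30d, Rnf20, Rnf121 and Rnf182, against 3.99% of all 27025 genes in the table. The AP-1 core TGANTCA was found in 7 of 54 (13%, against 8.97%) and the NF-kB consensus in 1 of 54, Rnf121 (1.85%, against 5.14%). Trim30a, Trim30d and Trim21 count as 3 of the 6, and the first 2 of these are copies of each other. A match is a description of letters and not a binding site.

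Stimulation of isoform A cells moved RING and TRIM genes in both directions, with more falls than rises, as over all genes tested. Rnf19a rose most and Rnf125, Rnf167 and Trim21 fell most. Of the 74 members, 14 were higher and 28 lower in stimulated than in unstimulated isoform A cells, and 32 did not pass the threshold. The 28 include 3 genes (Rnf144a, Trim45 and Trim62) that were detected on unstimulated arrays alone and so could only fall. The calls are 56.8% of members, against a background of 66.4% of all genes called (29.6% higher and 36.8% lower). The share of members called was therefore not above that of the array. The share lower was near that of all genes and the share higher was below it, a difference that was not tested. The median difference was -0.101 over the members and -0.0229 over all genes. Among the called members, 18 moved by at least 1 on the log2 scale, against 29.9% of all genes. Values of stimulated and unstimulated arrays did not overlap for 38 of 74 members, against 61.5% of all genes. Rnf genes gave 11 higher and 18 lower of 46 and Trim genes 3 higher and 10 lower of 28. When arrays were scaled to their medians and not quantile normalized, the difference over all genes had a median of -0.22 and the members gave 7 higher and 34 lower and all genes 1651 higher and 3652 lower (in place of 2512 and 3122), so the smaller rises below are relative to the array as a whole.

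**Figure D1:**
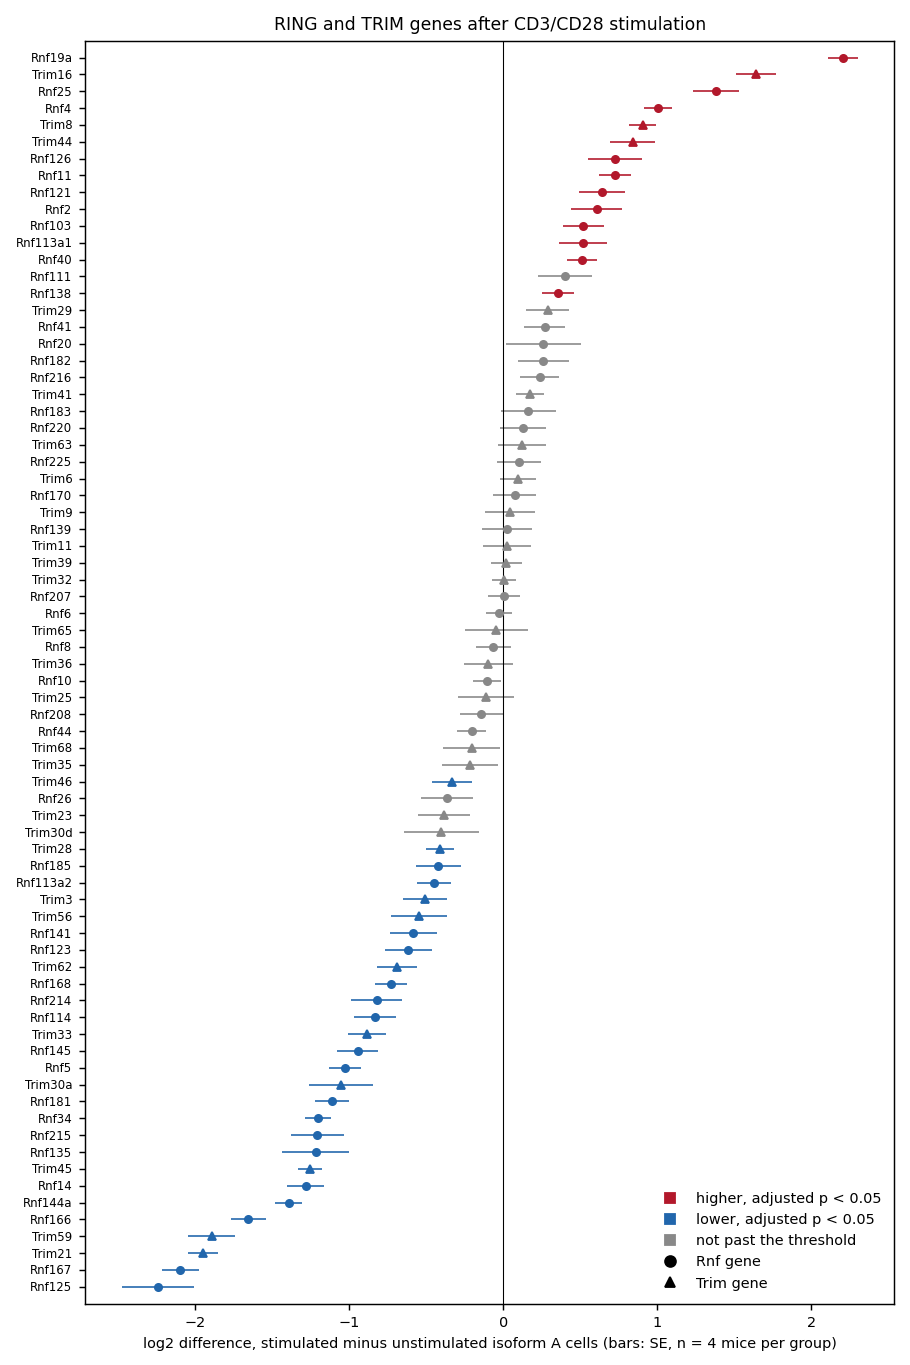
The difference between stimulated and unstimulated isoform A cells is plotted on the log2 scale for the 74 measured members, 1 row each, with bars of 1 SE (n = 4 mice per group), red for higher, blue for lower and grey for not past the threshold. Rnf19a lies at the top at 2.20 and Rnf125 at the bottom at -2.24, with 14 red and 28 blue points.

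By role, 0 of 10 innate and interferon-linked ligases rose and 6 fell, with a median of -0.693. Their share called (60%) was near the 66.4% of all genes, of which 29.6% rose and 36.8% fell, and so was that of the chromatin and DNA damage ligases (70%). The latter split into 4 higher and 3 lower of 10 (median 0.308), and ligases of the endoplasmic reticulum membrane into 2 higher and 4 lower of 10 (median -0.17). The 4 RING-between-RING ligases gave 1 higher and 2 lower. The remaining Rnf genes gave 4 higher and 8 lower of 21, and the remaining Trim genes 3 higher and 3 lower of 16 (median 0.0209). Of the falls, Rnf144a in the RING-between-RING class and Trim45 and Trim62 among the remaining Trim genes passed the filter through the unstimulated arrays alone. Their direction was set by the filter. These roles were assigned from general knowledge of the genes, and no difference between roles was tested.

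**Figure D2:**
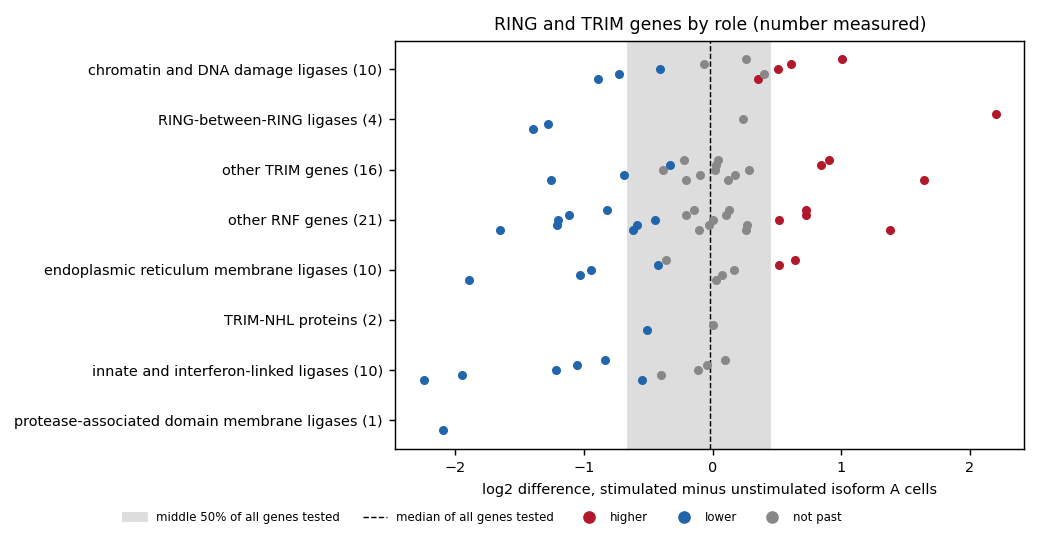
Each point is 1 member's log2 difference between stimulated and unstimulated isoform A cells, grouped by role with the number measured in brackets, and the grey band holds the middle 50% of all 8480 genes around their median of -0.0229. The interferon-linked ligases lie at or left of 0.10, while the 4 RING-between-RING ligases range from -1.39 (Rnf144a) to 2.2 (Rnf19a). Rnf144a passed the detection filter through the unstimulated arrays alone.

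Among RING-between-RING ligases, Rnf19a (Dorfin), which takes ubiquitin onto its own cysteine before passing it on, rose 4.61-fold. Its log2 levels in mice 1 to 4 were 10.36, 10.46, 10.45 and 10.53 unstimulated and 12.56, 12.62, 12.64 and 12.80 stimulated with isoform A. All stimulated arrays lay above all unstimulated ones, and the difference was 2.20 ± 0.10 (limma adjusted p = 2.53e-12). The level with isoform B (12.68, 12.69, 12.69 and 13.01) and mock (12.80, 12.81, 12.60 and 12.94) was in the same range as with isoform A. Rnf14, a coactivator of the androgen receptor in human cells, and Rnf144a moved the other way. Rnf14 fell from 10.57, 10.54, 10.53 and 10.68 to 9.11, 9.03, 9.64 and 9.41, a difference of -1.28 ± 0.12 (limma adjusted p = 4.01e-08). The groups did not overlap, and its other probe gave -0.57. Rnf144a was detected on the 4 unstimulated arrays (5.81, 6.09, 6.06 and 5.67) and on 0 of the stimulated isoform A arrays, so that its level was at least 1.86-fold lower there. It passed the detection filter through the unstimulated arrays alone, so its direction was set by the filter. Rnf216, the last of this class, was detected on 0 unstimulated and 1 stimulated isoform A arrays and did not pass.

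Innate and interferon-linked ligases fell or did not pass. Rnf125, which in human cells ubiquitinates the RNA sensor RIG-I, had levels of 7.35, 7.51, 7.75 and 7.55 in unstimulated and 5.60, 5.22, 5.36 and 5.01 in stimulated isoform A cells. Every stimulated array lay more than 1 unit below every unstimulated one, with a difference of -2.24 ± 0.23 (4.74-fold, limma adjusted p = 1.59e-07). Rnf135 (Riplet), which activates RIG-I, fell in all 4 mice, from 7.26, 6.49, 6.94 and 7.22 to 6.49, 5.26, 5.77 and 5.50, with mouse 1 highest in both groups. Its difference was -1.22 ± 0.22 (limma adjusted p = 9.29e-05), the groups met at 6.49, and its other probe gave -0.05. Trim25, which also ubiquitinates RIG-I in human cells, differed by -0.11 ± 0.18 and did not pass.

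Trim21 fell from 10.06, 10.23, 10.16 and 10.16 to 8.19, 8.29, 8.24 and 8.07, a difference of -1.95 ± 0.10 (3.87-fold, limma adjusted p = 1.57e-11). All 4 unstimulated arrays lay above every stimulated array. The other 2 detected Trim21 probes, found on 5 and 11 arrays, gave 0.12 and -0.38, so the probes disagree. Trim30a, a mouse ligase that dampens Toll-like receptor signalling, fell from 9.15, 9.19, 9.12 and 9.23 to 7.81, 8.07, 8.32 and 8.28 (-1.06 ± 0.21, limma adjusted p = 0.000248). Trim30d, its neighbour, had 6.21, 6.45, 6.31 and 6.64 against 5.63, 6.08, 6.34 and 5.94, overlapping groups, with a difference of -0.40 ± 0.24 that did not pass. Rnf114, an interferon-induced ligase, fell by 0.84 ± 0.14 (limma adjusted p = 3.48e-05), and Trim56, linked to DNA sensing through STING, by 0.55 ± 0.18 (limma adjusted p = 0.0135). Trim6 (0.10 ± 0.12) and Trim65 (-0.05 ± 0.20) did not pass. No match to the interferon response core was in the windows of Rnf114, Rnf135, Trim6, Trim25 or Trim56.

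The interferon-stimulated genes that are no Rnf or Trim gene moved in the same comparison, with 2 of 23 higher and 15 lower and a median of -1.13. Ifit3 fell by 3.49 ± 0.43 and Ifit2 by 3.36 ± 0.30. The mean level of the list was 7.50 to 7.72 on unstimulated arrays and 6.63 to 6.88 on stimulated isoform A arrays. In such bulk samples, fewer cells of a type and less RNA per cell cannot be told apart.

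**Figure D3:**
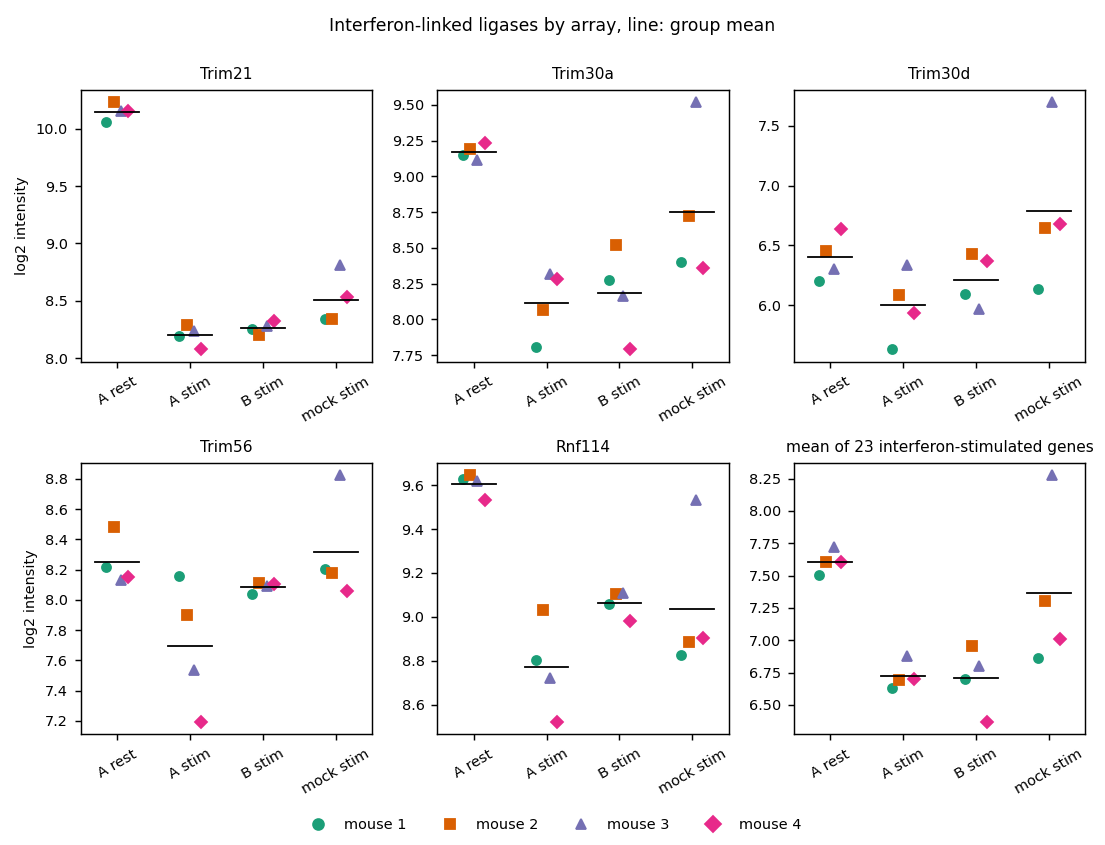
Log2 intensity on each of the 16 arrays is plotted for 5 interferon-linked ligases and for the mean of 23 interferon-stimulated genes, with 1 symbol per mouse and a line at each group mean. In Trim21 every stimulated array lies below every unstimulated one, and the mock array of mouse 3 is the highest stimulated array in all 6 panels.

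The protease-associated domain ligases span membranes of the endosome and the cell surface, and Rnf167 was the 1 of this class that was measured. Its levels fell from 8.95, 9.33, 9.03 and 8.80 to 6.81, 7.15, 6.84 and 6.93, a difference of -2.10 ± 0.12 (4.28-fold, limma adjusted p = 6.60e-11). The groups did not overlap, and the 4 other detected Rnf167 probes differed by -2.44, -1.97, -1.37 and -0.61, the same direction in each. Rnf13, Rnf43, Rnf133 and Rnf150 of the same class were detected on 0 arrays.

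Ligases of the endoplasmic reticulum membrane clear misfolded proteins and tune sterol synthesis. Trim59, a Trim protein anchored in that membrane, fell from 7.97, 8.21, 8.10 and 8.13 to 5.94, 5.86, 6.57 and 6.47, with no overlap (-1.89 ± 0.15, limma adjusted p = 5.27e-09). Rnf5, which removes misfolded membrane proteins, fell by 1.03 ± 0.10, and its close relative Rnf185 by 0.42 ± 0.15, the latter with overlapping groups. Rnf145, a sterol-responsive ligase, fell by 0.95 ± 0.13. Rnf121 (0.64 ± 0.15) and Rnf103 (0.52 ± 0.13) rose in all 4 mice, but both calls were lost with median scaling.

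The chromatin and DNA damage ligases moved in both directions. Rnf4, the ligase that recognises SUMO chains, rose from 9.11, 9.31, 9.39 and 9.25 to 10.13, 10.29, 10.36 and 10.30 (1.00 ± 0.09, limma adjusted p = 3.70e-08). Every mouse rose by about the same amount, and the groups did not overlap. Rnf2, the catalytic subunit of Polycomb repressive complex 1, rose by 0.61 ± 0.17, and Rnf40, a subunit of the histone H2B ligase, by 0.51 ± 0.09. Both calls were lost with median scaling. Rnf20, the partner of Rnf40, differed by 0.26 ± 0.24 and did not pass. In the response to double-strand breaks, Rnf168, which ubiquitinates histone H2A at the break, fell by 0.73 ± 0.11 while Rnf8, which acts before it, differed by -0.06 ± 0.11. Rnf138, which acts in end resection, rose by 0.36 ± 0.10 (its other probes gave 0.36 and 0.01), a call also lost with median scaling. Trim33, a regulator of Smad4, fell from 7.36, 7.57, 7.88 and 7.55 to 6.90, 6.70, 6.68 and 6.54 (-0.89 ± 0.12), and the corepressor Trim28 (KAP1) fell by 0.41 ± 0.09. For Trim33 the groups did not overlap, and the other 2 detected probes gave -1.08 and -0.62.

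Trim16 was the largest rise among the Trim genes. It encodes a protein that helps clear damaged lysosomes. Its levels were 5.77, 6.02, 6.00 and 5.44 in unstimulated and 7.54, 7.34, 7.53 and 7.38 in stimulated isoform A cells. The difference was 1.64 ± 0.13 (3.12-fold, limma adjusted p = 4.67e-09), with no overlap. Trim8, which acts on NF-kB and STAT signalling, rose from 10.82, 10.86, 10.76 and 10.70 to 11.94, 11.64, 11.50 and 11.68 (0.91 ± 0.09, limma adjusted p = 8.02e-08). Mouse 1 was highest among the stimulated arrays, and all 4 lay above the unstimulated ones. Trim44, which has no RING domain, rose by 0.84 ± 0.15. Trim45, detected on the 4 unstimulated arrays and on 0 stimulated isoform A arrays, was at least 1.76-fold lower after stimulation. Trim62, detected on the same arrays, was at least 1.22-fold lower. Both passed the filter through the unstimulated arrays alone, which set their direction. Of the TRIM-NHL proteins, Trim32 differed by 0.005 ± 0.08, a value whose sign depends on the processing, while its other probe gave 0.45. Trim3 fell by 0.51 ± 0.14, though its second probe gave 0.07 and the mean of both did not pass (adjusted p = 0.0968 by limma).

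Among the other Rnf genes, Rnf25, which binds the NF-kB subunit p65 in human cells, rose from 7.30, 6.93, 6.97 and 6.92 to 8.60, 8.53, 8.19 and 8.32 (1.38 ± 0.15, limma adjusted p = 2.63e-07). All 4 stimulated arrays were above all unstimulated arrays. Rnf11, a partner of the A20 ubiquitin-editing complex, rose by 0.72 ± 0.10, and its other 2 probes gave 0.79 and 0.72. Rnf126, which acts with BAG6 in cytosolic protein quality control, rose by 0.73 ± 0.17 and Rnf113a1, a splicing and DNA repair factor, by 0.52 ± 0.15. With median scaling neither call held, and Rnf113a1 turned to -0.02. Rnf166 fell from 9.51, 9.31, 9.17 and 9.20 to 7.95, 7.55, 7.44 and 7.62 (-1.66 ± 0.12, limma adjusted p = 1.02e-09), with mouse 1 highest in both groups and no overlap. Rnf214 (-0.82), Rnf123 (-0.62), Rnf141 (-0.58), Rnf113a2 (-0.45) and the Trim gene Trim46 (-0.33) made up the smaller falls. Rnf215 fell by 1.21 ± 0.17, Rnf34 (CARP1, a ligase of caspases in human cells) by 1.2 ± 0.09 and Rnf181 by 1.11 ± 0.11. The other detected Rnf34 probes, found on 8 and 5 arrays, gave only -0.25 and -0.30. The bright probes of Rnf10 (-0.10 ± 0.09) and Rnf44 (-0.21 ± 0.09) did not pass, though Rnf44 did in the fit that blocks on the mouse (adjusted p = 0.0476 by limma). Differences of the 32 members that did not pass ranged from -0.40 for Trim30d to 0.40 for Rnf111, and Rnf111 also passed with the block (adjusted p = 0.0132 by limma), as did Rnf41 and Trim41.

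**Figure D4:**
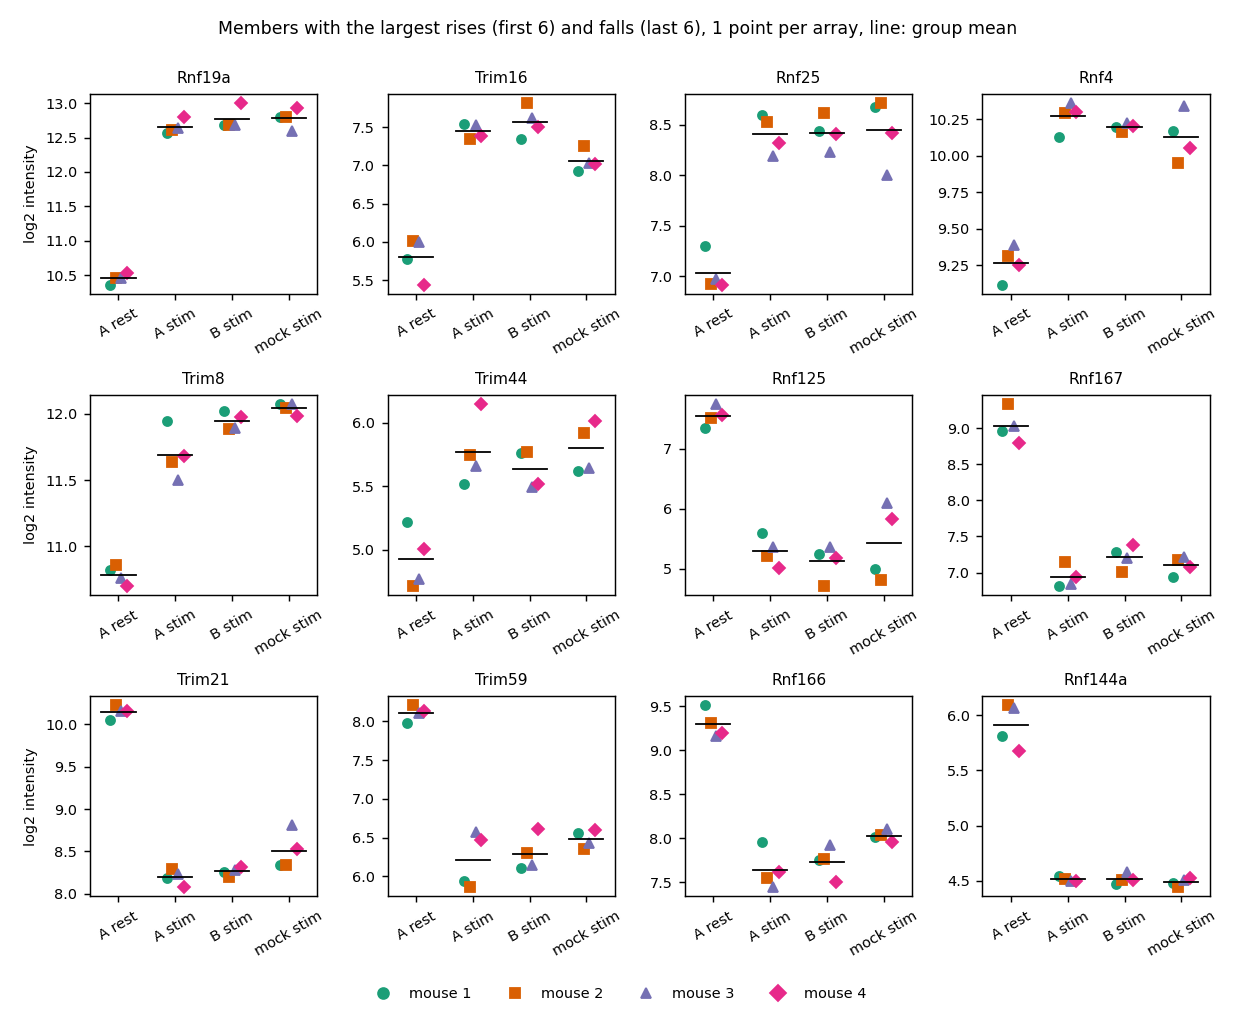
Log2 intensity on each array is plotted for the 6 members with the largest rises and the 6 with the largest falls in isoform A cells, with 1 symbol per mouse and a line at the group mean. In all 12 panels the stimulated isoform A arrays are separated from the unstimulated ones. Isoform B and mock arrays lie on the same side as the stimulated isoform A arrays. The panels were chosen for the size of this difference, which favours such a separation. Rnf144a passed the detection filter through the unstimulated arrays alone.

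Stimulated mock cells were also set against unstimulated isoform A cells, a comparison that shares its unstimulated arrays with the one above and in which stimulation and the MALT1 construct differ together. Here 16 of 74 members were higher and 27 lower, against 29.7% and 36.2% of all genes (65.9% in either direction), and groups did not overlap for 39 members, against 61.8% of all genes. Rnf144a, Trim45 and Trim62 are among the 27 and the 39. They were detected on 0 mock arrays and passed the filter through the unstimulated arrays alone, so they could only fall. With median scaling 9 members were higher and 31 lower, against 1589 and 3582 of all 8480 genes. Side by side with isoform A, Rnf19a differed by 2.33 ± 0.10, Trim8 by 1.26 ± 0.09, Trim16 by 1.25 ± 0.13 and Rnf4 by 0.86 ± 0.09. Among the falls, Rnf125 differed by -2.10 ± 0.23, Rnf167 by -1.93 ± 0.12, Trim21 by -1.64 ± 0.10, Trim59 by -1.62 ± 0.15 and Rnf166 by -1.27 ± 0.12. Each of these 9 was called. Trim56 (0.07 ± 0.18) and Trim30a (-0.42 ± 0.21) did not pass. With the mouse as a block Rnf20, Rnf111, Trim63 and Trim68 were called as well (limma adjusted p of 0.0486, 0.0299, 0.0495 and 0.0353). Without the mock array of mouse 3 the counts were again 16 and 27, against 2498 and 2975 of all 8480 genes, but the members changed. Rnf113a2, Rnf126 and Trim41 lost the call, and Rnf20, Trim30a and Trim63 gained it. In that fit Trim30a differed by -0.68 ± 0.16 (limma adjusted p = 0.00122) and Trim56 by -0.10 ± 0.17 (adjusted p = 0.632 by limma).

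The comparison of stimulated isoform A with stimulated mock asks which members depend on isoform A at 2.5 h. Of the 74 members 0 were higher and 1, Trim8, was lower (1.35%), against 4.86% of all genes (2.61% higher and 2.25% lower). At an unadjusted p under 0.05 there were 14 members, against 19% of all genes. Values of the groups did not overlap for 7 members (Rnf145, Rnf166, Trim8, Trim16, Trim21, Trim30a and Trim32), against 10.1% of all genes. With the mouse as a block, 1 member was higher (Trim16) and 5 were lower (Rnf34, Rnf166, Trim8, Trim30d and Trim56), against 4.42% and 4.36% of all genes. The median difference was -0.0439 over the members and -0.00522 over all genes.

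Trim8 had log2 levels of 11.94, 11.64, 11.50 and 11.68 with isoform A and 12.07, 12.05, 12.08 and 11.99 with mock. All 4 isoform A arrays lay below all mock arrays, mouse 1 only narrowly. The difference was -0.35 ± 0.09 (1.28-fold, limma adjusted p = 0.0301, and 0.0151 with the block), lower in 4 of 4 mice. The call was lost with median scaling (adjusted p = 0.548), with the 2 groups fitted alone (0.141), with array weights (0.0537) and in 7 of 8 fits that left out 1 array, all by limma, with differences of -0.29 to -0.44. Without the mock array of mouse 3 it was -0.34 (adjusted p = 0.0743 by limma). Isoform B arrays (12.02, 11.88, 11.89 and 11.98) overlapped with those of both other groups, and isoform B differed from mock by -0.10 ± 0.09.

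Of the 5 members gained with the mouse as a block, Trim30d and Trim56 are on the interferon-linked list. Trim56 had 8.16, 7.90, 7.54 and 7.19 with isoform A and 8.21, 8.18, 8.83 and 8.06 with mock, lower in 4 of 4 mice, with differences within a mouse from -0.05 to -1.29. Its difference was -0.62 ± 0.18 (adjusted p = 0.0638, and 0.0437 with the block, both by limma). Trim30d had 5.63, 6.08, 6.34 and 5.94 against 6.14, 6.64, 7.69 and 6.68 (-0.79 ± 0.24, adjusted p = 0.0753, and 0.0347 with the block, both by limma). Mouse 3 gave both the highest mock value and the largest difference in both genes. Rnf166 differed by -0.39 ± 0.12 (adjusted p = 0.0721, and 0.0377 with the block, both by limma) and Rnf34 by -0.25 ± 0.09 (adjusted p = 0.123, and 0.0465 with the block, both by limma). The other detected Rnf34 probes gave -0.16 and -0.05. Trim21 (-0.31 ± 0.10) and Trim30a (-0.63 ± 0.21) passed in neither fit, although their groups did not overlap. Without the mock array of mouse 3 the differences were -0.45 for Trim56, -0.49 for Trim30d, -0.20 for Trim21, -0.38 for Trim30a and -0.36 for Rnf166, in the fit without the block, in which none of them had passed with all arrays either.

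Interferon-stimulated genes and erythroid markers moved beside these members. The 23 interferon-stimulated genes had a median of -0.529 for isoform A minus mock, with 3 lower and 0 higher, among them Rsad2 (-2.0 ± 0.45) and Oasl2 (-1.64 ± 0.44), and a median of -0.277 without the mock array of mouse 3. Of the 4 erythroid markers on the array, Hba-a1 and Car2 passed the filter and Alas2 and Slc4a1 were at 0 arrays. The mean of the 2 was 6.58 to 8.33 on mock, 5.39 to 6.14 on isoform A, 5.16 to 5.77 on isoform B and 4.85 to 5.35 on unstimulated arrays. Hba-a1 differed by -2.32 ± 0.51 and Car2 by -0.93 ± 0.21 between isoform A and mock, and both were called. Their part in the differences of Trim56, Trim30a, Trim30d, Trim21 and Trim8 was not tested.

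Trim16 lay higher with either isoform than with mock. Its levels were 7.54, 7.34, 7.53 and 7.38 with isoform A, 7.34, 7.82, 7.62 and 7.51 with isoform B and 6.93, 7.25, 7.03 and 7.02 with mock. No array of either isoform fell to the level of a mock array. The difference from mock was 0.39 ± 0.13 for isoform A (adjusted p = 0.104, and 0.0443 with the block, both by limma) and 0.51 ± 0.13 for isoform B (adjusted p = 0.0550, and 0.0188 with the block, both by limma), each in 4 of 4 mice. The 2 comparisons share the mock arrays. Without the mock array of mouse 3 they were 0.38 and 0.50, and neither passed without the block. Trim32, of the TRIM-NHL class, had 9.59, 9.47, 9.61 and 9.58 with isoform A and 9.37, 9.27, 9.37 and 9.35 with mock, groups that did not overlap. The difference of 0.22 ± 0.08 did not pass (adjusted p = 0.123 by limma), though Trim32 was called higher without background correction. Its other probe gave 0.38.

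For isoform B minus mock, 0 of 74 members were called in either direction, against 1.86% of all genes (0.908% higher and 0.955% lower), and 8 had an unadjusted p under 0.05, against 12% of all genes. With median scaling all genes gave 19 higher and 45 lower in place of 77 and 81, and again 0 members. With the mouse as a block Trim16 was the 1 member called, against 1.95% higher and 2.04% lower over all genes. After Trim16, the lowest p-values were those of Rnf225, Rnf185 (0.40 ± 0.15, limma adjusted p = 0.239), Trim30a (-0.56 ± 0.21, limma adjusted p = 0.243) and Rnf166 (-0.29 ± 0.12, limma adjusted p = 0.291). Rnf225 was detected on 0 isoform B and 2 mock arrays, so both means hold undetected values, and its difference did not pass (adjusted p = 0.136 by limma). For Rnf185 the isoform B arrays (7.02, 7.04, 7.14 and 7.12) lay above the mock arrays (6.68, 6.55, 6.63 and 6.87). Rnf225, Rnf166, Trim21 and Trim16 also had groups that did not overlap, 5 members in all against 7.69% of all genes, and Trim30a differed by -0.31 without the mock array of mouse 3.

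**Figure D5:**
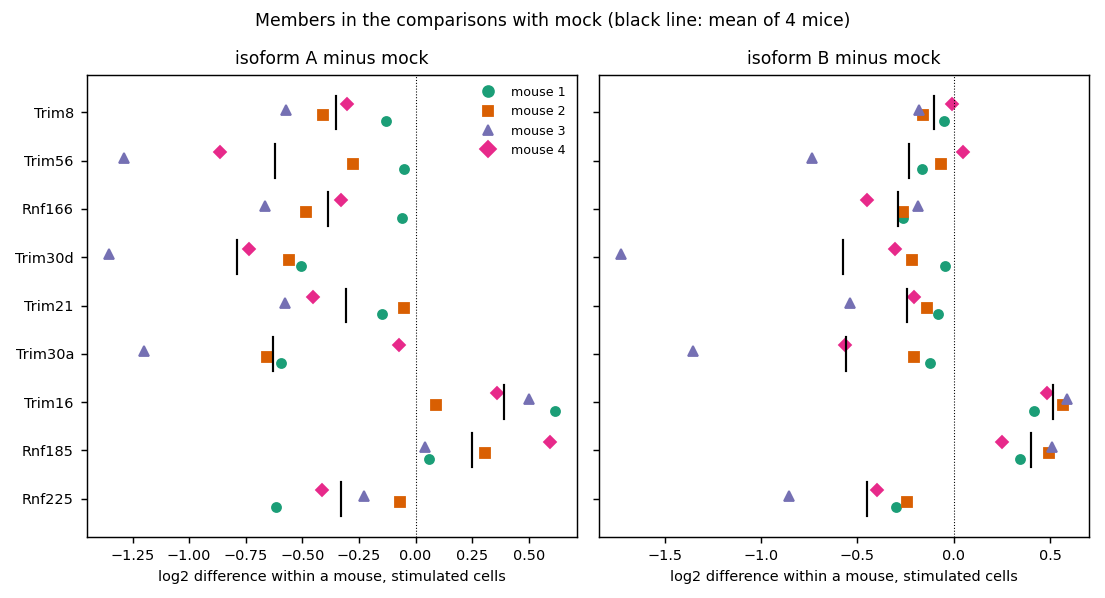
The log2 difference between isoform A and mock (left) and isoform B and mock (right) within each mouse is plotted for 9 members in stimulated cells, with 1 symbol per mouse and a black line at the mean. Trim16 lies right of 0 in all 4 mice on both sides, and mouse 3 (triangles) is the point farthest to the left for Trim56, Trim30d, Trim21 and Trim30a on both sides.

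Between the isoforms, 0 of 74 members were called for isoform A minus isoform B, against 0.212% of all genes (0.189% higher and 0.0236% lower), and 6 had an unadjusted p under 0.05, against 9.61% of all genes. With the mouse as a block the count was again 0, against 0.401% higher and 0.142% lower. Differences of the members ranged from -0.43 for Trim23 to 0.35 for Rnf126. The lowest p-values were those of Trim8 (-0.25 ± 0.09, limma adjusted p = 0.340), Trim23 (-0.43 ± 0.17, limma adjusted p = 0.386), Trim32 (0.18 ± 0.08, limma adjusted p = 0.429), Rnf167 (-0.28 ± 0.12, limma adjusted p = 0.430) and Rnf114 (-0.29 ± 0.14, limma adjusted p = 0.513). Trim23, with 5.67, 5.96, 5.34 and 5.89 on isoform A and 6.03, 6.09, 6.13 and 6.31 on isoform B arrays, was the 1 member whose groups did not overlap, against 4.03% of all genes. A p that misses the threshold does not show that the isoforms act alike on these genes.

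The rest of the ubiquitin pathway was read from lists of other genes, to be set beside the 29.6% of all genes higher and 36.8% lower in this comparison. After stimulation of isoform A cells, E2 conjugating enzymes gave 14 higher and 3 lower of 22 (median 0.522), led by Ube2q2 (2.15 ± 0.11) and Ube2a (1.46 ± 0.15). The list for ligases with a RING domain but another name gave 19 higher and 9 lower of 33 (median 0.421). It also holds Traf1, which has no RING domain. Among its genes were Rlim (1.86 ± 0.14) and the DNA methylation maintenance factor Uhrf1 (-2.82 ± 0.08). HECT ligases gave 6 higher and 8 lower of 17, with Hectd2 at 3.83 ± 0.19 and Hectd3 at -2.91 ± 0.20, and the core of the cullin ligases 5 higher and 6 lower of 16 (68.8% called, against 66.4% of all genes). Of the 4 genes on the list of ubiquitin and E1 genes, Uba3, of the NEDD8 pathway, rose by 1.35 ± 0.15. The other 3 fell, among them Uba7, the E1 of ISG15, by 2.23 ± 0.10. The RING and TRIM members gave 14 higher and 28 lower, and differences between these lists were not tested. For isoform A minus mock, Traf1 (0.48 ± 0.11) and Ube2q2 (0.47 ± 0.11) were called higher and Pml (-0.83 ± 0.23) and Ube2e1 (-0.68 ± 0.16) lower. Traf1 was also higher with isoform A than with isoform B (0.57 ± 0.11, limma adjusted p = 0.0400).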

How the data were processed

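Per the labels' protocols, Trizol RNA was cleaned on columns and made into biotin-cRNA (Ambion), and read on 1-colour Illumina bead arrays. The deposited unnormalized intensity values are linear bead signals per probe, each beside its detection p-value, per the file headers. GenomeStudio 2011.1 is named in the submitters' processing notes. The authors' deposited value table holds intensity values of those arrays after background subtraction, down to -20.47. Its scale is linear and its probes rank as in the raw signals on 16 of 16 arrays (Spearman over 0.999), but its normalization is not stated. It was used as an alternative, and its 16 column medians lay between 8.065 and 8.109.

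Background was corrected with limma's nec (normexp on the detection p-values, offset 16), followed by quantile normalization and log2 (limma 3.58.1, statmod 1.5.0, R 4.3.3). The platform annotation names 1 gene for 23978 of the 25697 probes, several for 0 and none for 1719. All 117 member symbols equal RefSeq's. The brightest detected probe stood for a gene. limma's moderated 2-sided test used 4 group means over 16 arrays (12 residual degrees of freedom), with 1 spread per gene for all groups. The members and lists were chosen with earlier results of these data known. Named are the 12 largest rises and 12 largest falls after stimulation, every member called between stimulated groups or the 5 lowest p-values where fewer were called, members at the ends of each role, the 3 brightest probes, those next to the detection filter and at most 2 genes of each other list. Other members stand as partners of these or for their role and were chosen after their values were seen. Equal replicate numbers are the same mouse, per the labels. Residuals of arrays of 1 mouse in different groups correlated with a mean r of 0.289 (0.131 to 0.417, 24 pairs). For different mice in different groups the mean r was -0.0962 (72 pairs). That second value follows from centring each group and is no separate check of the pairing. The fit was tested on simulated data. Bounds ("at least") set a group's mean against the lowest signal among detected probes, or the undetected probe's own where higher. The number of arrays limits the precision. Alternatives are listed in the closing section.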

Additional observations from a re-analysis of the deposited data

Results flagged for a closer look

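Among 36 named members in 4 groups (144 groups of 4 arrays), 3 arrays lay far from the rest of their group by Dixon's criterion, fewer than the 1 in 20 groups that chance flags. Rnf114 stood at 9.53 on the mock array of mouse 3, against 8.82 to 8.90 on the other mock arrays, and that array also had the highest mean of the interferon-stimulated genes (8.28). Rnf19a stood at 13.01 on the isoform B array of mouse 4, against 12.68 to 12.69 on the others. Rnf25 stood at 7.30 on the unstimulated isoform A array of mouse 1, against 6.92 to 6.97 on the others.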

How the results depend on the processing

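Named differences, 1222 values over the alternatives tried (mouse as a block, no background correction, an offset of 50, median scaling, the authors' table, 2 other detection filters, the mean of all probes, the 2 groups fitted alone, array weights and leaving out single arrays), kept their direction and side of the threshold in 1171 cases, lost the call in 25, gained it in 18 and turned in 8. Trim32 after stimulation with isoform A turned to -0.19 with median scaling, -0.0013 in the authors' table, -0.0023 with array weights and lay between -0.0196 and 0.0373 when single arrays were left out. Rnf113a1 turned to -0.0178 with median scaling. Median scaling left 7 members higher after stimulation with isoform A and 9 for mock against unstimulated isoform A. For isoform A against mock, members higher numbered 1 with the replicate block and 2 without background correction, and members lower 5 with the block, 2 without background correction, 2 with an offset of 50, 0 with median scaling, with the 2 groups alone and with array weights, and 0 to 3 when single arrays were left out. For isoform B against mock, members higher numbered 1 with the block, without background correction, with detection required on all 4 arrays of a group and with an offset of 50, and 0 to 1 when single arrays were left out. Beside these the block gained Rnf41, Rnf44, Rnf111 and Trim41 after stimulation with isoform A and Rnf20, Rnf111, Trim63 and Trim68 for mock against unstimulated isoform A, lost no call, and changed no other call of a member. Some members gained with the block for isoform A against mock also passed elsewhere: Trim56 and Trim16 without background correction, Trim56 with an offset of 50 and without the isoform A array of mouse 1, Rnf166 without that array and Trim30d without the mock array of mouse 1. Trim32, which the block did not gain, was called higher without background correction. The cause of these changes was not tested. Rnf126 in mock against unstimulated isoform A lost its call with median scaling, without a detection filter and without single arrays (isoform A unstimulated of mouse 1 or 2, mock of mouse 1, 3 or 4), with a lowest value of 0.31 among these leave-outs. Over all genes, isoform A against mock gave 412 calls, 745 with the block, 136 with median scaling and 161 with the 2 groups alone. For the isoforms the counts were 18, 46, 11 and 0, and for isoform B against mock 158, 338, 64 and 61. For isoform A against mock, all genes gave 279 higher and 250 lower without background correction. The counts were 261 and 244 with an offset of 50 and 161 and 122 with array weights. Without single arrays 89 to 223 were lower. For isoform B against mock, genes higher numbered 106 without background correction and 99 with an offset of 50. They numbered 95 of 7477 with detection required on all 4 arrays of a group, and 40 to 67 without single arrays. The chip as a block was not run. Many members lie near background, where differences are understated by the offset.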
